A study of Homo sapiens with 9 samples.

Results

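The replication-dependent histone genes of human cells lie in clusters, and RNA polymerase II (RNAPII) was followed here over 4 windows that hold them on the hg19 build (GRCh37). The windows are chr6:26000000-26300000, called 6p22 A, chr6:27080000-27140000, called 6p22 B, chr6:27770000-27880000, called 6p22 C, and chr1:149780000-149870000, called 1q21, 560 kb in all. Any RNAPII peak that shared at least 1 bp with a window was a member, which gave 199 of the 142069 peaks in 5 peak lists. The windows were set by position alone and the rule used no measured value, though earlier results of these data were known when they were chosen. They hold 64 replication-dependent histone genes, 6 for H1, 15 for H2A, 16 for H2B, 13 for H3 and 14 for H4.

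RNAPII chromatin immunoprecipitation and sequencing (ChIP-seq) had been carried out in the HEK293 line, which derives from human embryonic kidney, to ask how RNAPII is distributed when the helicase RECQL5 is depleted or overproduced. In the knockdown arm, HEK293 cells carried a lentiviral control shRNA, RECQL5 shRNA5 or RECQL5 shRNA7. In the overexpression arm, HEK293 T-REx cells transfected with the pcDNA4/TO-RECQL5 plasmid, in which full-length RECQL5 stands under a doxycycline-inducible promoter, were grown with 0.0 or 1.0 ng/ml doxycycline, so the cells without doxycycline also carried the plasmid. Each RNAPII group was 1 library, so every difference below is between single libraries, has no replicate check and carries no p-value. The antibody recognises RNAPII whatever the phosphorylation of its tail, and peaks were called in each library against IgG, with a single IgG library of untreated cells for both doxycycline lists. The sources used here do not say whether the cells were clones, nor how far they were in the cell cycle.

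Histones package DNA, and most of them must be made while DNA is being copied, so cells carry many copies of the H1, H2A, H2B, H3 and H4 genes and transcribe them in S phase. These genes are short and without introns, and they are concentrated in nuclear bodies with the coactivator NPAT. Their mRNAs are the known exception to polyadenylation, since they end in a conserved stem-loop that is bound by SLBP and cut with the help of the U7 small nuclear RNA. H2A and H2B genes often stand head to head and share the DNA between their starts.

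The control shRNA peak with the most tags in each window covered a promoter that is printed here to show its sequence. The summit stood at the printed promoter in 6p22 B and within 43 bp of the H2AC19 start in 1q21. In 6p22 A it lay past H1-4, 627 bp before the H2BC5 start, and in 6p22 C it lay 815 bp past the H2AC15 start. For divergent pairs the whole interval between the 2 starts is given, and for single genes 200 bases before the start and 20 after it. Capitals mark the TATA box TATAAA, the CCAAT box CCAAT, the octamer ATTTGCAT and the H1 box AAACACA, on either strand, and marked runs may overlap. The H1-4 sequence holds all but the octamer, the H2BC12/H2AC12 sequence all but the H1 box, and the H2AC15/H2BC15 sequence 3 CCAAT boxes and none of the others.
H1-4 promoter (chr6:26156357-26156576, + strand): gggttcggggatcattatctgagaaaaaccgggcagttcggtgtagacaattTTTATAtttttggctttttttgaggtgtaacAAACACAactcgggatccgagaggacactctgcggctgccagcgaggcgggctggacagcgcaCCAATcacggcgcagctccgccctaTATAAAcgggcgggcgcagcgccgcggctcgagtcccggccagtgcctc
H2BC12/H2AC12 promoter (chr6:27114635-27114884, + strand): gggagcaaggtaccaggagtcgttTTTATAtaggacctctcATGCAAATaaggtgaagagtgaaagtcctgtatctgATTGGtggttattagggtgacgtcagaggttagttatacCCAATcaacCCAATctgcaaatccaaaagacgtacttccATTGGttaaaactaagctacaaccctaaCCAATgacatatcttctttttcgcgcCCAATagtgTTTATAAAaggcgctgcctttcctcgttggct
H2AC15/H2BC15 promoter (chr6:27806154-27806346, + strand): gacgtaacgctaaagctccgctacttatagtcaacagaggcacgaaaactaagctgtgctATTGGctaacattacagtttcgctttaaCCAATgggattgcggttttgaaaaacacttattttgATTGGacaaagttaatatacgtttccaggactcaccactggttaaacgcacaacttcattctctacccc
H2AC19 promoter (chr1:149822428-149822647, + strand): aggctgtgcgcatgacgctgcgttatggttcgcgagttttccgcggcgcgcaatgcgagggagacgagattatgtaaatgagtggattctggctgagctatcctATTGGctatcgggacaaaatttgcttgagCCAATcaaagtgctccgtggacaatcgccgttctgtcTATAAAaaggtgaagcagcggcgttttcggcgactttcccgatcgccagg

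The motifs were far more frequent among histone promoters than elsewhere, over windows of 250 bases before to 50 after the start. TATAAA stood in 42 of the 64 histone promoters (65.6%) and in 9.62% of the promoters of 20033 other protein-coding genes. CCAAT stood in 54 (84.4%) against 35.8%. It stood in every H1, H2B and H3 promoter and in 14 of 15 H2A promoters, but in only 5 of 14 H4 promoters. H2AC18, the H2A gene without CCAAT, also lacked TATAAA. Its annotated model is 974 bp long, beside 534 bp for its near-identical copy H2AC19, which has both motifs. How the placing of the H2AC18 start bears on this was not tested. The octamer ATTTGCAT, bound by OCT1 in histone H2B promoters, stood in 13 of 16 H2B and 11 of 15 H2A promoters, in no H1, H3 or H4 promoter, and in 1.46% of the others. The H1 box AAACACA stood in all 6 H1 promoters, 1 H2A promoter, 2 H3 promoters and 4.16% of the others. Among the 46 genes overlapped by a peak in all lists and the 8 overlapped in none, TATAAA stood in 33 of 46 and 4 of 8, CCAAT in 37 of 46 and 7 of 8, and the octamer in 18 of 46 and 2 of 8. A match between the starts of a divergent H2A and H2B pair was counted for both genes, so these are counts of genes and not of separate sites. These are letter matches and say nothing of binding by a factor.

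At the other end of the genes, a 16-base hairpin of 6 paired bases and a 4-base loop that begins with TT was found within 100 bases of the annotated end in 59 of the 64 genes (92.2%), and in 17 of the 20033 other genes (0.0849%). The search also required GG at the foot of the left arm and CC at that of the right, and limited pyrimidines among the inner bases of the right arm. It allowed G-T pairs. The counts are for this narrower pattern and not for any hairpin of that size. The commonest form stood in 34 genes. Within that distance no hairpin was found for H3C6, H2BC10, H4C13, H2AC18 and H2BC21. The annotated H2AC18 and H2BC21 are 974 and 2224 bp long, beside a median of 487 bp over the 64 genes. Hairpins further from the annotated end were not searched for, so these genes are not shown to lack one. The hairpins of the genes under the strongest peaks are given with the loop in capitals. Those of H2BC5, H2BC12 and H2AC15 are not of the commonest form.
H1-4 (chr6:26157323-26157338, + strand): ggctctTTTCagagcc
H2BC5 (chr6:26158815-26158830, + strand): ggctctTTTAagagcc
H2BC12 (chr6:27114145-27114160, - strand): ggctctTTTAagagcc
H2AC12 (chr6:27115325-27115340, + strand): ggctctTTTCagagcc
H2AC15 (chr6:27805663-27805678, - strand): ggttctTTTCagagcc
H2BC15 (chr6:27806868-27806883, + strand): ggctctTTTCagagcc
H2AC19 (chr1:149823141-149823156, + strand): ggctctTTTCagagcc
H3C15 (chr1:149824667-149824682, + strand): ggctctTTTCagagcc

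RNAPII covered the clusters in each of the 5 lists. The windows held 32 peaks with 9355 tags in the control shRNA list, 34 peaks with 16061 tags upon shRNA5 and 38 peaks with 46366 tags upon shRNA7. Without doxycycline 50 peaks held 9842 tags, and with doxycycline 45 peaks held 9061. Tags are sequenced fragments counted inside peaks and are not scaled to library size. Peaks lay over 17.8% of the windows in the control list, 23.4% upon shRNA5, 54.4% upon shRNA7, 17.6% in uninduced and 15.3% in induced cells. Lists differed in length, from 5287 peaks for control shRNA to 47060 without doxycycline, and tags inside all peaks ranged from 842310 in the control list to 6698771 upon shRNA7.

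The clusters ranked high within each list. With control shRNA, window peaks carried 93.9 tags per kb on average, 1.58 times the mean of all peaks of that list. The mean was 122.5 upon shRNA5 and 149.5 upon shRNA7, or 2.05 and 2.34 times that of all peaks. In the overexpression arm it was 99.8 in uninduced and 105.6 in induced cells, or 2.90 and 2.31 times that of all peaks. The median window peak stood at the 89.1th percentile of its list by significance score (the −log10 of the caller's p, multiplied by 10) for control shRNA, and between the 95.3th and the 96.5th percentile in the other lists. Peaks at the starts of 84 ribosomal protein genes, another set of highly transcribed genes, stood at median percentiles of 93.8, 98.8, 98.5, 99.5 and 99.2 in the 5 lists. These percentiles were above those of the clusters in every list, and their tags per kb, 89.6, 122.3, 144.8, 84.8 and 97.2, were slightly below. The windows took 1.11% of all tags in peaks in the control list (95% Wilson interval 1.09 to 1.13), 0.425% upon shRNA5 (0.419 to 0.432), 0.692% upon shRNA7 (0.686 to 0.699), 0.679% without doxycycline (0.666 to 0.693) and 0.588% with it (0.577 to 0.601). At equal list length this order changed. With every list cut to its 5287 highest scores the shares were 1.11%, 0.734%, 1.14%, 1.27% and 0.999%, and control was no longer the highest. Under the score, FDR and fold filters control stayed the highest, and the cause of the change was not tested. These intervals cover counting error only, since reads without molecular identifiers are not independent molecules.

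Most of the histone genes carried RNAPII. A peak overlapped 46 of the 64 genes in the control list (71.9%, 95% Wilson interval 59.9 to 81.4), 50 upon shRNA5, 56 upon shRNA7, 51 in uninduced and 50 in induced cells. Where a gene was counted only with a summit inside it or within 500 bp, the order turned, with 36 genes for control, 36 for shRNA5 and 30 for shRNA7. Among 1097 other protein-coding genes under 2 kb, the shares overlapped by a peak were 7.2%, 16%, 17.4%, 18% and 14.9% in the 5 lists. At the start itself, within 500 bp, 47, 52, 57, 52 and 52 histone genes had a peak, against 15.9%, 42%, 50.1%, 54.3% and 45.8% of 20033 other protein-coding genes. Peaks covered 71.2% of the summed length of the histone genes in the control list, 76.0% and 87.6% upon shRNA5 and shRNA7, and 76.3% and 74.4% without and with doxycycline.

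The summits sat at the starts. Over peaks that covered a histone gene, the median distance from the summit to the nearest histone start was 38 bp in the control list, 54 bp upon shRNA5, 107 bp upon shRNA7, 57.5 bp in uninduced and 44 bp in induced cells. The summit lay within 500 bp of a start in 27 of 29 control peaks, 27 of 30 shRNA5 peaks, 23 of 26 shRNA7 peaks, and in all 36 and all 35 peaks without and with doxycycline. The median length of the genes was 487 bp.

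**Figure D1:**
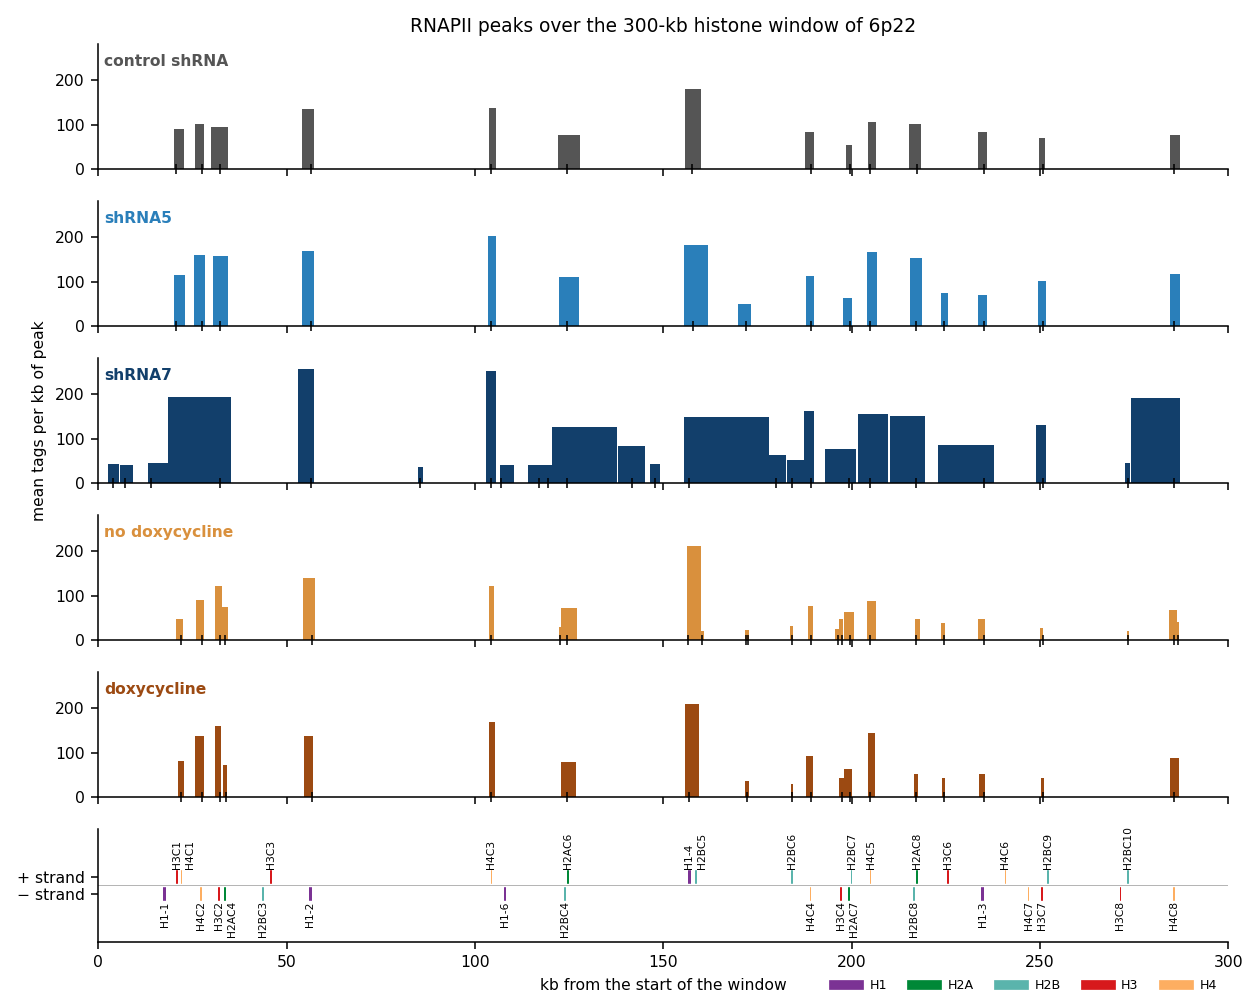
RNAPII peaks over 6p22 A in the 5 lists. Each bar spans a peak, its height is the mean tags per kb of that peak, ticks mark summits, and the lowest track shows the histone genes by strand and class against distance from the window start. The peak over H1-4 and H2BC5 holds the most tags in every list, and shRNA7 peaks are the widest.

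In 6p22 A, a window of 300 kb with 32 histone genes, peaks covered 20 genes in the control list, 21 upon shRNA5, 26 upon shRNA7, 23 in uninduced and 22 in induced cells. In all 5 lists the peak with the most tags lay over H1-4, which encodes the linker histone H1.4, and its neighbour H2BC5. That peak held 741 control tags, 1118 upon shRNA5, 3331 upon shRNA7, 780 in uninduced and 763 in induced cells. It was 4140 bp long in the control list, 6149 bp upon shRNA5 and 22399 bp upon shRNA7, and 3680 and 3663 bp in the doxycycline arm. The other somatic linker gene with a strong peak was H1-2, with 445, 527, 1089, 437 and 363 tags in the same order. H4C3, alone under its peak in all 5 lists, had 264, 412, 665, 160 and 274 tags.

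In 6p22 B, 60 kb with 5 histone genes, RNAPII stood over 2 divergent H2B and H2A pairs. The H2BC12/H2AC12 peak held 552 control tags, 859 upon shRNA5, 488 in uninduced and 461 in induced cells, and the H2BC11/H2AC11 peak held 433, 656, 505 and 345. Upon shRNA7 both pairs and H4C9 lay under a single peak of 50957 bp that began before the window and held 6755 tags. Its significance score, 295.23, stood at the 76.8th percentile of its list, and it was the longest window peak of the 5 lists. H4C9, between the pairs, had no control peak, and its peaks held 246 tags upon shRNA5, 10 in uninduced and 24 in induced cells.

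In 6p22 C, 110 kb with 16 histone genes, peaks covered 11, 13, 14, 12 and 12 genes. The H2AC15/H2BC15 peak held 451, 610, 326 and 319 tags in the control, shRNA5, no doxycycline and doxycycline lists, and was the top peak of the window in all of these but shRNA5. There the peak over H2BC13, H2AC13 and H3C10 held 627 tags. Upon shRNA7 the H2AC15/H2BC15 peak also took in H4C12 and held 1995 tags over 13159 bp. Tag density in the peaks of this window was the lowest of the 4 in every list but shRNA7, at 82.2 for control, 105.6 for shRNA5, 71.4 without doxycycline and 75.8 with it.

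**Figure D2:**
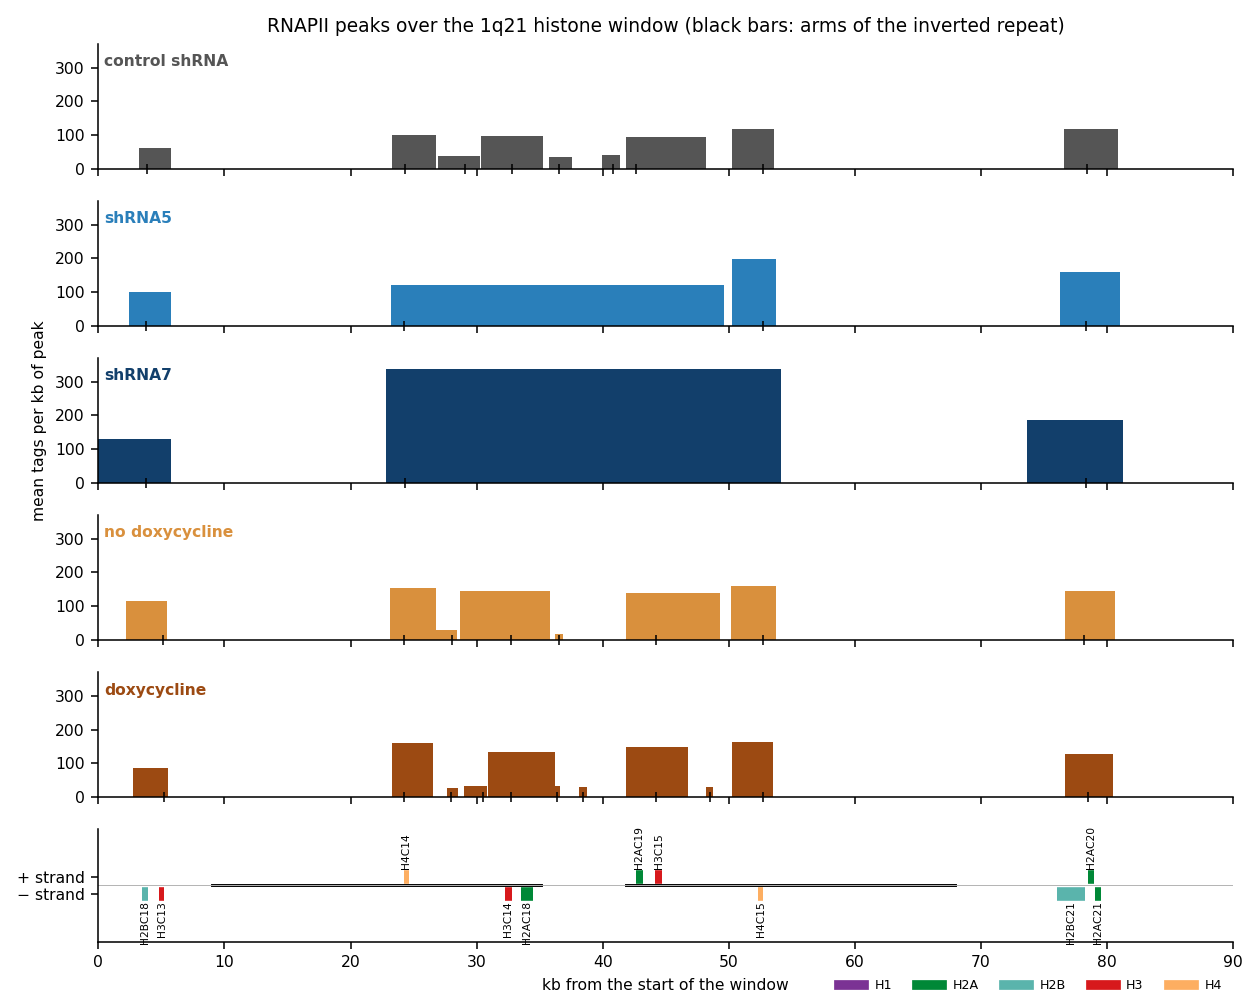
RNAPII peaks over 1q21, drawn as for 6p22 A, with the arms of the inverted repeat as black bars in the gene track. Peaks of the control and doxycycline lists mirror each other across the centre of the repeat. Reads of its histone genes cannot be assigned to a copy by sequence, so this likeness is not read as a result. Upon shRNA7 the centre is a single peak of 10540 tags.

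In 1q21, 90 kb with 11 histone genes, every gene was covered by a peak in every list. The window held 4196 tags in uninduced and 3350 in induced cells, and 2746 with control shRNA, 5011 upon shRNA5 and 12822 upon shRNA7. Its centre is an inverted repeat with arms of 26.1 kb that are 99.7% identical and hold H4C14, H3C14 and H2AC18 on the left, H2AC19, H3C15 and H4C15 on the right. In the control list H4C14 and H4C15, which face each other, had peaks of 358 and 386 tags. The H3C14/H2AC18 peak held 479 tags and the mirrored H2AC19/H3C15 peak 607. Without doxycycline the same pairs of peaks held 559 and 565 tags, and 1020 and 1036, and with doxycycline 522 and 542, and 696 and 726. Upon shRNA5 all but H4C15 lay under a peak of 26402 bp with 3216 tags, and upon shRNA7 all 6 genes lay under a peak of 31331 bp with 10540 tags.

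The near identity of copies limits what can be said of single genes. Of the words of 36 bases (the tag length the peak caller was set to) in the 6 genes of the repeat, 100% occurred more than once in the 4 windows. The shares were 92.4% in H4C11 and 92.9% in H4C12, and 64.6% in H2AC13 and 67.3% in H2AC14. Over all 64 genes the median share was 6.19%, and over the 8 genes without a peak in any list it was 0.996%, with a highest value of 5.86%. Reads were aligned with Bowtie's best option, and a limit on the number of matches is not given in the sources used here. A read made of a repeated word cannot be assigned to a copy from its sequence, so neither differences nor likeness between such copies are read here. A peak on each copy of a gene of the repeat does not show that both copies carried RNAPII.

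Within the H3 and H4 classes most genes encode the same protein. Among the 13 H3 genes 10 encode a single protein of 136 residues, and among the 13 H4 genes with an annotated coding sequence 12 encode a single protein of 103 residues, with H4C7 the exception. The 15 H2A genes encode 9 proteins, the 14 H2B genes with an annotated coding sequence 12, and the 6 H1 genes 6. So the 11 H4 genes overlapped by a peak upon shRNA7 and an H4 gene overlapped by none, H4C13, encode the same protein.

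**Figure D3:**
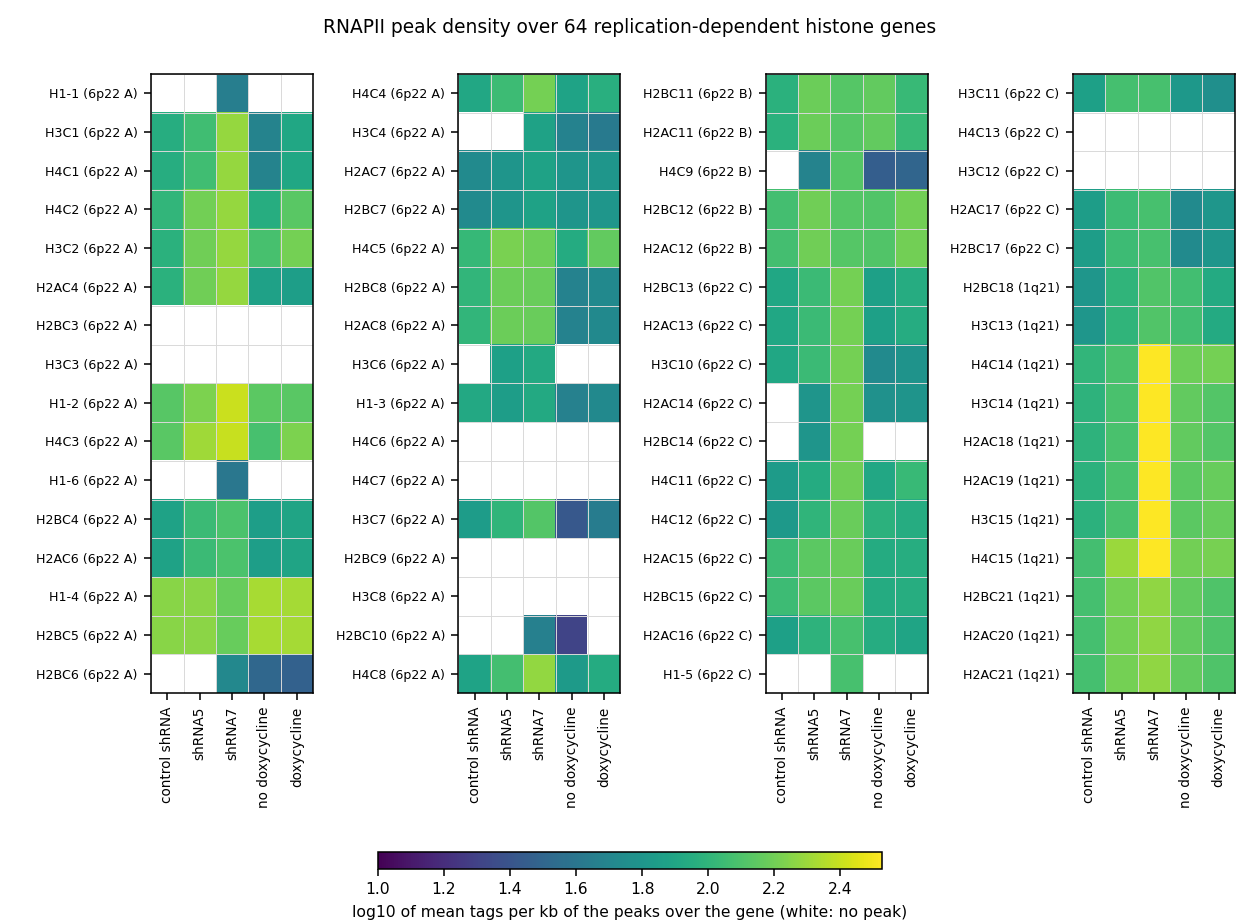
Mean tags per kb of the peaks over each of the 64 histone genes, on a log10 colour scale, in the 5 lists. Each row is a gene in genome order with its window, white marks no peak, and genes under a shared peak show the same colour. The 11 genes of 1q21 have a peak in every list, and white runs lie in 6p22 A and C.

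Genes overlapped by a peak were also counted by class. All 15 H2A genes had a peak in every list except control shRNA, in which H2AC14 had none. H2B genes with a peak numbered 11, 12, 14, 13 and 12 of 16, H3 genes 8, 9, 10, 9 and 9 of 13, and H4 genes 10, 11, 11, 11 and 11 of 14. Of the 6 linker genes, H1-2, H1-3 and H1-4 had a peak in every list. H1-1, H1-5 and H1-6, of which H1-6 encodes the testis linker histone, had one only upon shRNA7, of 243, 461 and 155 tags. The summits of the H1-1 and H1-6 peaks lay 3995 and 1332 bp past the starts, beyond the ends of both genes. The H1-5 peak was shared with H2AC16, reached over 23.3% of H1-5, and had its summit 66 bp before the H2AC16 start.

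Across lists, 46 genes were overlapped by a peak in all 5 and 8 in none. The 8 were H2BC3, H3C3, H4C6, H4C7, H2BC9 and H3C8 in 6p22 A, and H4C13 and H3C12 in 6p22 C. H2BC3 and H3C3 are neighbours in a stretch without a peak, 8240 to 9236 bp and 7024 to 8387 bp from the nearest peak. H4C13 and H2BC9 lay close to a peak that did not reach them, 156 to 534 bp from the H3C11 peak and 281 to 904 bp from the H3C7 peak. H4C6 and H4C7 were 2802 to 5188 bp and 1816 to 3080 bp from the nearest peak. H3C12 was 389 bp from a peak upon shRNA7 and 1394 to 1787 bp from one in the other lists. Under the start rule H3C12 therefore counted as having a peak upon shRNA7, and H2BC9 in the control, shRNA5 and shRNA7 libraries. H3C8 was 12881 bp or more from one in the control, shRNA5 and doxycycline lists, 1453 bp away without doxycycline and 1059 bp away upon shRNA7.

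Upon RECQL5 depletion, the peaks called in the clusters held more tags than with control shRNA, over more sequence. The tag ratio was 1.72 upon shRNA5 (95% interval 1.67 to 1.76) and 4.96 upon shRNA7 (4.85 to 5.07). These sums are over peaks called separately in each library, and 2 shRNA7 peaks ran past a window edge. Upon shRNA5 the length under peaks was 1.32 times that of control and the density 1.30 times, and upon shRNA7 the length was 3.11 times and the density 1.59 times. Over all peaks of the same lists the ratios were 4.49 and 7.95, and those lists held 4.48 and 6.08 times as many peaks, while the clusters held 1.06 (95% interval 0.659 to 1.71) and 1.19 (0.745 to 1.89) times as many. At equal list length the clusters had 28 and 24 peaks upon shRNA5 and shRNA7 against 32 for control. Why the control list is the shortest was not tested. The paper reports more peaks for wild-type cells and for both hairpins than these lists hold, and smaller increases upon the hairpins. The reason for this difference was not tested. In each window the tag ratio exceeded 1 upon both hairpins. It ran from 1.56 in 6p22 A to 1.91 in 6p22 B upon shRNA5. Upon shRNA7 it ran from 4.06 in 6p22 C to 6.86 in 6p22 B.

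**Figure D4:**
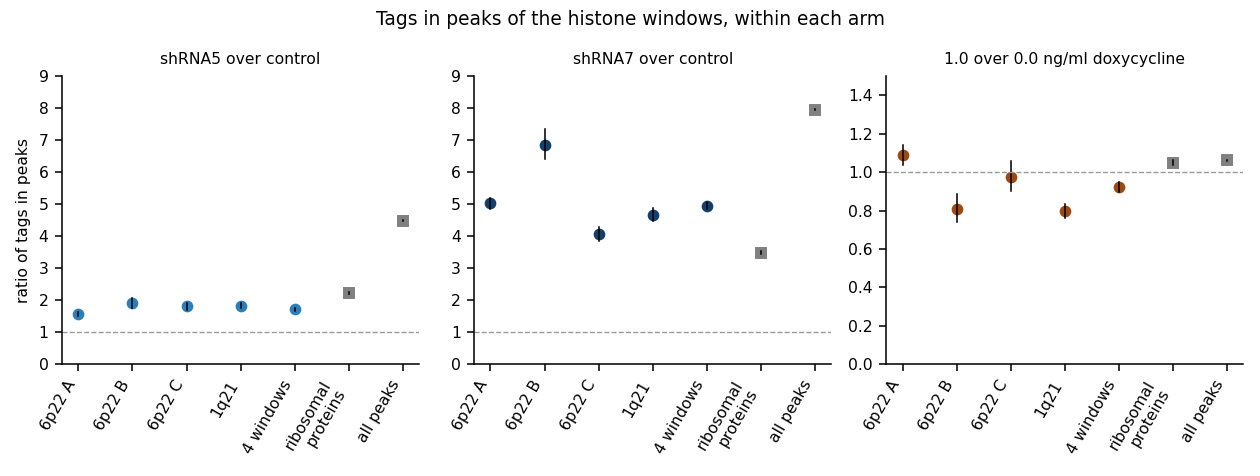
Ratio of tags in peaks, on a linear axis, for shRNA5 and shRNA7 over control shRNA and for 1.0 over 0.0 ng/ml doxycycline. Circles are the 4 windows and their sum, squares are peaks at ribosomal protein gene starts and all peaks, lines are 95% intervals for counting error, and the dashed line is 1. Window ratios lie under that of all peaks in both hairpin panels, an order that turned upon shRNA7 with lists of equal length (4.07 for the windows against 3.98).

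At the starts of the ribosomal protein genes, 79 of which had a control peak, the tag ratio was 2.22 upon shRNA5, 3.48 upon shRNA7 and 1.05 with doxycycline. The ratio of the clusters was below that of the ribosomal protein genes upon shRNA5 and above it upon shRNA7. Peaks that paired one to one between lists were also compared. Upon shRNA5 the median ratio in tags was 1.59 over 26 pairs in the windows and 2.03 over 3679 elsewhere, and 25 of the 26 were above 1, as were 3601 of the 3679. Upon shRNA7 it was 4.46 over 18 pairs and 3.28 over 3041, with all 18 above 1, as were 3033 of the 3041. In tags per kb the medians were 1.44 in the windows and 1.34 elsewhere upon shRNA5, where the order turned, and 1.68 and 1.56 upon shRNA7. So in tags upon shRNA7 the windows stood above the rest among paired peaks and at equal list length, and below it over all peaks. The lowest tag ratio upon shRNA5 in the windows, 0.872, was that of H1-3, with 188 control tags and 164 upon shRNA5.

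Of the 18 genes not overlapped by a control peak, 10 were overlapped upon shRNA7 and 4 of these, H3C6, H4C9, H2AC14 and H2BC14, upon both hairpins. The count of 4 depended on the processing, with 9 at scores of at least 100, 1 at equal list length and 0 by the summit. Besides the linker genes H1-1, H1-5 and H1-6, those overlapped upon shRNA7 and not upon shRNA5 were H2BC6, with 234 tags and a summit 134 bp past its start, H2BC10, with 59 tags, and H3C4, under a peak of 629 tags that it shared with H2AC7 and H2BC7. H2AC14 and H2BC14, a divergent pair of 6p22 C, shared a peak of 101 tags upon shRNA5, with its summit 72 bp from a start, and lay with 3 other histone genes under a peak of 1670 tags upon shRNA7. H3C6 was touched at its start by a peak of 127 tags upon shRNA5, whose summit stood 697 bp before the start, and was covered by the peak it shared with H1-3 upon shRNA7. For H4C9 the summit upon shRNA5 lay 1923 bp past the start. Counted at the start, 5 of 17 histone genes without a control peak had one upon both hairpins (29.4%), beside 29.3% of 16857 other protein-coding genes, so this share was that of the background. Upon shRNA7 alone or with shRNA5 it was 10 of 17 (58.8%), beside 42.1%.

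With doxycycline, which induces RECQL5, the peaks called in the clusters held slightly fewer tags over less sequence, at a slightly higher density. The tag ratio was 0.921 (95% interval 0.895 to 0.947), against 1.06 over all peaks, and 45 peaks stood against 50. The length under peaks was 0.870 times and the tags per kb 1.06 times those without doxycycline. At fold enrichment of at least 10 the order turned, with 0.894 for the windows and 0.809 over all peaks. By window it was 1.09 in 6p22 A, 0.810 in 6p22 B, 0.977 in 6p22 C and 0.798 in 1q21. Without 1q21, which holds both arms of the inverted repeat, it was 1.01. Among 33 peaks paired one to one, 14 were higher with doxycycline, with a median ratio of 0.979 in tags and 1.095 in tags per kb. Elsewhere 8038 of 13810 pairs were higher, with a median of 1.11 in tags and 1.26 in tags per kb. H4C3, with 160 and 274 tags, and H4C2, with 175 and 301, were among those higher with doxycycline, and H2BC11/H2AC11, with 505 and 345, among those lower. The only gene with a peak in a single list of this arm was H2BC10, with 10 tags without doxycycline. At the start, 1 of 52 histone genes lost its peak with doxycycline, beside 17.8% of other protein-coding genes. Of 12 without such a peak, 1 gained one, beside 2.58%. The gained gene was H3C6, and its gain came from a shifted peak edge and not from a new peak. That peak held 38 tags in both lists, with its summit 895 bp before the start without doxycycline and 893 bp with it. Its end, at position 26224861 without doxycycline and 26224895 with it, came within the start rule only in the induced list.

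**Figure D5:**
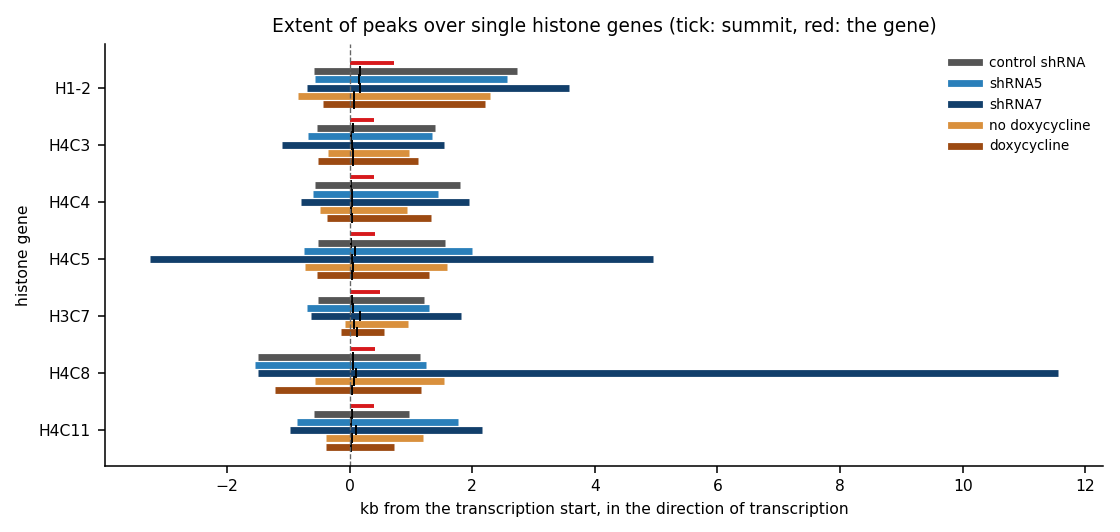
Extent of the peak over the 7 genes that were the only histone gene under a peak in all 5 lists, in kb from the transcription start and in the direction of transcription. Bars are peaks, black ticks summits and red bars the genes. Peaks reach past the gene end on the right in every case, and furthest upon shRNA7 at H4C8 and H4C5.

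Peaks reached past the ends of the genes. For 7 genes that were the only histone gene under a peak in all 5 lists (H1-2, H4C3, H4C4, H4C5, H3C7, H4C8 and H4C11), the median reach past the gene end was 984 bp in the control list, 1035 bp upon shRNA5, 1775 bp upon shRNA7, 812 bp in uninduced and 754 bp in induced cells. The median reach before the start was 570, 698, 977, 478 and 432 bp. The longest reach was at H4C8 upon shRNA7, 11143 bp past the end, beside 736, 832, 1123 and 754 bp in the control, shRNA5, no doxycycline and doxycycline lists. The H4C8 peak also overlapped an annotated long noncoding RNA gene in all 5 lists, and the H4C5 peak upon shRNA7 a pseudogene. The part of these other genes, of depth and of the caller in these edges was not tested.

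Peaks could not separate the starts of most divergent pairs. Of 11 pairs whose starts face away from each other within 1 kb, 10 are H2A and H2B pairs with 193 to 250 bp between the starts. A single peak lay over both starts in 9 pairs in the control list, in 10 upon either hairpin, and in 9 without and with doxycycline. H3C7/H2BC9, with 978 bp between starts, was the pair not joined in any list. H2AC14/H2BC14 was joined upon both hairpins alone, since in the doxycycline arm its peaks of 38 tags covered H2AC14 and not H2BC14.

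Some window peaks held no histone gene, 3 in the control list, 4 and 12 upon shRNA5 and shRNA7, and 14 and 10 without and with doxycycline. A peak over no annotated gene, with its summit 9238 to 9596 bp past the H2BC17 start, held 146 tags upon shRNA5, 212 upon shRNA7, 54 in uninduced and 70 in induced cells, and was not in the control list. Over a long noncoding RNA gene upstream of H2BC6, a peak held 169 tags upon shRNA5 and 35 with doxycycline, and 2 peaks held 9 and 13 tags without it. Of other named genes, BOLA1, which starts next to H2AC21, lay under the same peak as the histone genes in all 5 lists, and the pseudogenes H2BC19P and HIST2H2BC lay under the peaks of the inverted repeat in all 5 lists.

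Histone genes outside the clusters, most of which are transcribed through the cell cycle and polyadenylated, were also bound. Of 11 such genes 8 had a peak at the start in the control list and all 11 had one in the other lists. H3-3B, which encodes the replacement histone H3.3, held 1105 control tags, 1836 and 2485 upon the hairpins, and 698 and 795 in uninduced and induced cells, and H2AX held 410, 1124, 2114, 446 and 565. CENPA, MACROH2A1 and H2AJ lacked a control peak. Of 22 genes for histone mRNA processing and histone chaperones, 10, 19, 19, 21 and 21 had a peak at the start, and 9 had one in every list. Beside both sets, 15.9%, 42%, 50.1%, 54.3% and 45.8% of 20033 other protein-coding genes had a peak at the start. The control list was thus the lowest there too. NPAT held 47, 145, 152, 52 and 35 tags, and SLBP, which binds the stem-loop, had no control peak and 82, 118, 100 and 107 tags in the other lists.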

How the data were processed

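RNAPII ChIP-seq peak lists of 5 libraries were used. Per the study's methods, the authors aligned reads to hg19 with Bowtie 0.12.7 (best option) after CASAVA 1.8 and called peaks with MACS 1.4.2 (p of 1e-05) in each library against IgG. The deposited lists give for each peak a count of tags, a score (the −log10 of p multiplied by 10), a fold enrichment ratio over IgG and an FDR in percent. These values were used as the authors deposited them, and library depth is not given in them. The study's methods state that compared samples had similar numbers of reads.

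Peaks sharing at least 1 bp with a window or gene were counted in Python 3.11.15 with pandas 2.3.3. Of the 64 histone genes, 61 were placed by GENCODE 44 lifted to GRCh37 and 3 (H2BC7, H2BC8 and H4C6) by matching RefSeq promoter sequence to that build. The windows, members and gene lists were chosen with earlier results of these data known. All histone genes were counted by window and class. Described singly were the peak with the most tags in each window and list, and genes with a peak in all lists, in none, in 1, or differing within an arm. H1-2, H1-3, H4C2, H4C3, H2BC11 and H2AC11 were also given as examples after their values were seen. Lists were compared only within an arm, and intervals are 95% Wilson for shares and 95% counting intervals for ratios. Counting scripts were tested on simulated data. Alternatives were a score minimum, FDR and fold filters, merged peaks, lists of equal length, 1q21 left out and other rules for a gene with a peak.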

Additional observations from a re-analysis of the deposited data

How the results depend on the processing

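Every value rests on 1 library a group and on peaks, so RNAPII below the caller's threshold is not counted, library depth is not in the lists, and edges of long peaks weigh on tags. No paired analysis was possible because there is a single RNAPII library for every condition. The direction of the tag ratios held under every alternative run except doxycycline without 1q21, where it was 1.01. Without 1q21 the ratios upon shRNA5 and shRNA7 were 1.67 and 5.08, the shares of tags were 0.785, 0.292, 0.501, 0.390 and 0.371% (control, shRNA5, shRNA7, no doxycycline, doxycycline) and the gene length covered was 65.2, 70.1, 84.0, 72.1 and 69.6%. With scores of at least 100 the ratios upon the hairpins were 1.84 and 5.31, 9 genes had a peak upon both hairpins and none in control, the shares were 1.498, 0.516, 0.799, 0.871 and 0.738%, and coverage was 64.7, 86.1, 74.1 and 71.9% in control, shRNA7, no doxycycline and doxycycline. With fold enrichment of at least 10 the ratios were 1.67 upon shRNA5 and 0.894 with doxycycline (0.809 over all peaks), shRNA7 had 24 peaks, the shares were 1.28, 0.824, 1.16, 0.712 and 0.787%, and coverage was 73.4, 80.4 and 70.5% in shRNA5, shRNA7 and doxycycline. With all lists cut to the 5287 highest scores the ratios were 1.64 and 4.07 (2.49 and 3.98 over all peaks), 1 gene was gained, shRNA7, no doxycycline and doxycycline had 24, 29 and 29 peaks, the shares of the last 4 lists were 0.734, 1.14, 1.27 and 0.999%, and their coverage 70.9, 73.6, 66.7 and 65.1%. With FDR of at most 5% the shRNA7 share was 0.771% and coverage 86.1%. With peaks within 1 kb merged, shRNA7 had 24 peaks, a share of 0.709% and a ratio of 5.08. With a gene counted only where a summit fell, shRNA7 had 30 genes, against 36 for control and 36 for shRNA5, and 0 were gained. The cause of these shifts was not tested.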
